A study of Mus musculus with 2 samples.

Results

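The microRNA genes Mir335, Mir675, Mir483, Mir296 and Mir298 lie in or beside imprinted genes, and all 5 were found among the 1973 gene rows counted in newborn mouse heart. They were chosen by locus: Mir335 for Mest, Mir675 for H19, Mir483 for Igf2, and Mir296 and Mir298 for the Gnas locus. The study sequenced RNA shorter than 30 nt from whole hearts of pups of the inbred strain B6NCrl at postnatal day 0, with total RNA as the input. Replicate 1 is the heart of pup 1 and replicate 2 the heart of pup 3, so each of the 2 libraries is a separate animal, and no treatment, second genotype or second age is present. Counts on the strand of the gene came to 6373797 in replicate 1 and 7630427 in replicate 2, and levels are given as CPM, the count scaled to a library total of 1000000.

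An imprinted gene is transcribed mainly from the copy of one parent. Mest, also called Peg1, is expressed from the paternal copy. Igf2, a growth factor of fetal tissues that also acts on heart muscle, is expressed from the paternal copy, and the neighbouring long noncoding RNA H19 from the maternal copy, under a shared control region. The Gnas locus produces maternal, paternal and biallelic transcripts. One of them, the paternally expressed antisense RNA Nespas, has been linked to Mir296 and Mir298. A microRNA is cut from a hairpin precursor into arms of about the length of the sequenced molecules, and bases 2 to 8 of the mature strand, the seed, pair with target messengers. With an inbred strain and counts per gene, the parental copy was not measured here. The allele named beside each host is background knowledge.

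The precursors are shown first because their positions and sequences show which members lie inside a host and whether reads could be shared with another gene. Sequences are those of RefSeq on GRCm38, the build the deposited tables call mm10, and all 5 precursors have the same coordinates there as in the GENCODE M21 annotation. Each hairpin is written 5′ to 3′, with the mature arms in capitals.
Mir335 (chr6:30741299-30741396, plus strand): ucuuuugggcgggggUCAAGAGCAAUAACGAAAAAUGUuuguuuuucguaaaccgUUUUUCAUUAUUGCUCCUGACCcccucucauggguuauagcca
Mir483 (chr7:142654924-142654996, minus strand): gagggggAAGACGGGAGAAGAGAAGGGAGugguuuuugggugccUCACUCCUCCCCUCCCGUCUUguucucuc
Mir675 (chr7:142577064-142577147, minus strand): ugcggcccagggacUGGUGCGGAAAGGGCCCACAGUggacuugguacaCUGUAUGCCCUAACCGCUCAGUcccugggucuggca
Mir296 (chr2:174267047-174267125, minus strand): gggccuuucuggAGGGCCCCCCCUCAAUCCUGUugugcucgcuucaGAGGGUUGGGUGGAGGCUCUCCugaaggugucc
Mir298 (chr2:174267504-174267585, minus strand): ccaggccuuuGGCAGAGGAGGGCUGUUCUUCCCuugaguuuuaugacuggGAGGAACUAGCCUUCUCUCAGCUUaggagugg

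The 10 mature arms are printed with the seed in capitals, because shared seeds would place members in one target family.
miR-335-5p: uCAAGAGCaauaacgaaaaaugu
miR-335-3p: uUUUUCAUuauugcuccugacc
miR-483-5p: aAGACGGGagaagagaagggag
miR-483-3p: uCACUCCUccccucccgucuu
miR-675-5p: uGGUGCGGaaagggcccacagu
miR-675-3p: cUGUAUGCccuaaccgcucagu
miR-296-5p: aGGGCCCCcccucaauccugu
miR-296-3p: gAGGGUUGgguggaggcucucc
miR-298-5p: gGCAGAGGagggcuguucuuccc
miR-298-3p: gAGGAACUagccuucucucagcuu

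The 10 seeds were all different, and 0 of the 10 was the seed of another gene among the 1738 mature entries of the RefSeq table. Of the 45 pairs of arms, 43 shared no run longer than 5 nt. The longest run shared by any pair of members' arms was AGGGCCC, 7 nt, which begins at base 11 of miR-675-5p and at base 1 of miR-296-5p, counted from the 5′ end. The adjacent genes Mir296 and Mir298 thus have no seed in common. Base composition set Mir335 apart. Its arms were 30.4% and 36.4% G and C, below the lower quartile of all mature entries (44.0%), and 7 of the 8 other arms lay above the median of 52.2%. The exception was miR-298-3p at 50.0%. Folding energies computed for the precursors ranged from -33.8 kcal/mol for Mir483, the shortest at 73 nt, to -56.0 kcal/mol for Mir675 at 84 nt. Mir335, at 98 nt the longest, had -44.3 kcal/mol.

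The members take different positions in their loci. Mir335 lay within an intron in 7 of 11 annotated Mest transcripts and outside the other 4. Mir483 lay within an intron in 7 of 9 Igf2 transcripts and outside 2, and on the same strand also within Gm49394. Mir675 was inside an exon in 3 of 7 H19 transcripts, within an intron in 1 and outside 3. It is the only member found in an exon of its host. Mir296 and Mir298 lay on the strand of Nespas but past its annotated end, by 14.1 kb and 13.7 kb, and no other annotated gene overlapped them. These neighbours were 378 nt apart. Mir675 and Mir483 were 77.8 kb apart on chromosome 7. None of the 5 overlapped a gene on the opposite strand, and none shared a run of 20 nt with any other of the 2202 annotated microRNA precursors. By this measure no near-identical annotated copy could take a share of their reads.

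**Figure D1:**
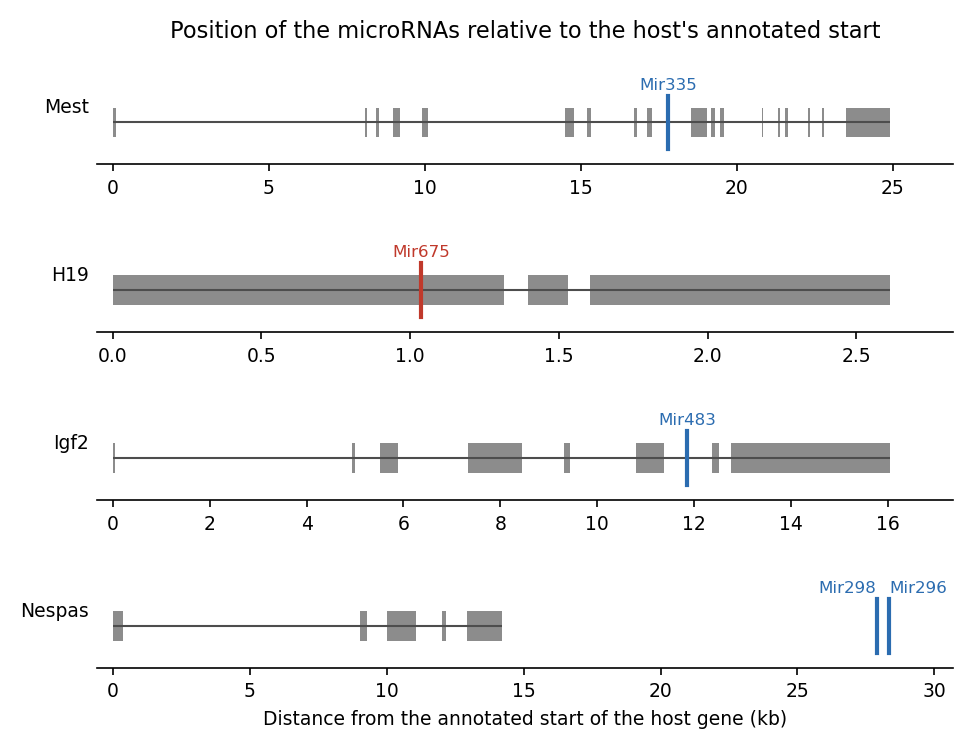
Position of each microRNA (coloured bars) and of the exons of all annotated transcripts (grey) along Mest, H19, Igf2 and Nespas, in kb from the annotated start of each gene in its direction of transcription. Mir335, Mir675 and Mir483 fall inside their hosts, and Mir298 and Mir296 fall 13.7 and 14.1 kb past the end of Nespas.

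Replicates 1 and 2 had ratios of 861 and 1226 between the highest and the lowest member. Mir335 had 58653 CPM in replicate 1 and 61548 CPM in replicate 2, from 373841 and 469641 counts. It ranked 4th of all gene rows in each library. Its mean was 60101 ± 2048 CPM (SD, n = 2), or 6.01% of the counts, and it made up 91.3% and 90.5% of the counts of the 5 members. Both hearts were thus high, and no other member came near. In bulk tissue a lower level can come from fewer cells of a type or from less RNA per cell, and these cannot be told apart. CPM values are compared between genes without division by length, since the mature arms are all 21 to 24 nt long. Ranks and shares hold only among reads assigned to a gene row. Reads matching several places, 35.9% and 34.6% of all reads in replicates 1 and 2, are not among them. Genes with further copies can therefore be undercounted, such as Mir133a-1 with 44 and 73 counts, and the effect on the ranks was not tested.

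The Gnas-locus pair and Mir483 formed a middle group. Mir298 had 2069 and 2635 CPM in replicates 1 and 2 (mean 2352 ± 400, rank 43). Mir483 had 1808 and 2073 CPM (mean 1940 ± 187, rank 49). Across hearts the ranges of Mir298 and Mir483 overlapped, although Mir298 was the higher of this pair in each heart. Mir296 had 1638 and 1674 CPM (mean 1656 ± 25.3, rank 56), below both hearts' values of Mir483. Together Mir296 and Mir298 reached 3707 and 4308 CPM, which placed the Gnas locus second among the 4 loci.

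Mir675 stood at the low end, with 68.1 CPM in replicate 1 and 50.2 CPM in replicate 2 from 434 and 383 counts (mean 59.1 ± 12.7, rank 185). It was still far above the level that a count of 0 allows, 0.471 and 0.393 CPM for 3 counts. All 5 members had 10 or more counts in both libraries, as did 18.1% of all 1973 genes. Both members of a pair are measured in the same hearts, and with 2 hearts an exact sign-flip permutation test of one member against another cannot go below a two-sided p of 0.5, so no such test was run on the order of levels.

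**Figure D2:**
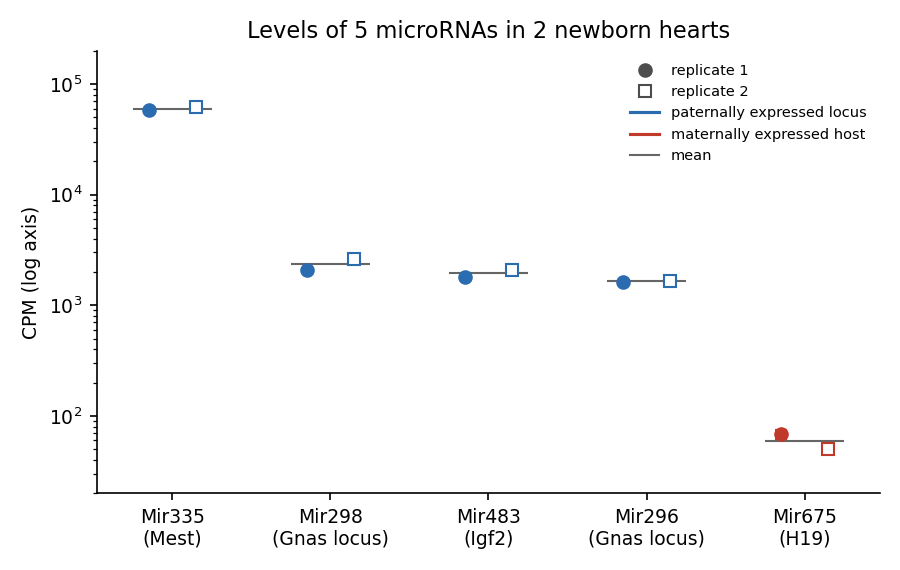
CPM on a log axis for each member in replicate 1 (filled circles) and replicate 2 (open squares), with exact 95% counting intervals, mostly smaller than the symbols, and grey lines at the mean of the 2 hearts. The 4 microRNAs assigned to the paternal copy sit between 1638 and 61548 CPM, and Mir675 of H19 sits at 50.2 and 68.1 CPM.

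**Figure D3:**
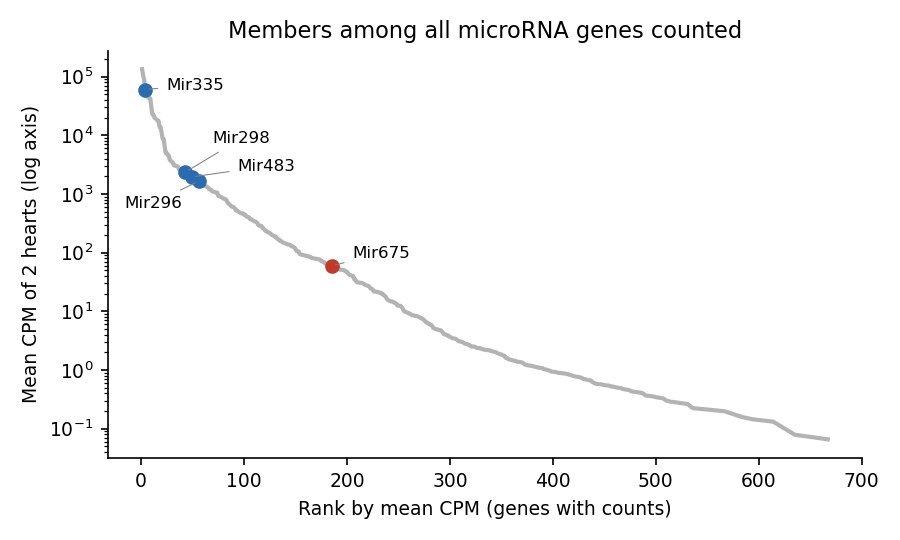
Mean CPM of 2 hearts on a log axis against rank for all genes with counts (grey line), with the members as points. Mir335 is at rank 4, Mir298, Mir483 and Mir296 lie at ranks 43, 49 and 56, and Mir675 is at rank 185. Ranks are among gene rows, which leave out reads matching several places.

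Within a library the counts of 2 genes share one depth, and their ratio can be tested against 1 to 1 for counting error. Mir335 exceeded Mir298 by 28.3-fold and 23.4-fold, Mir483 by 32.4-fold and 29.7-fold, and Mir296 by 35.8-fold and 36.8-fold in replicates 1 and 2. Its excess over Mir675 had counting intervals far from 1, with 861-fold (exact 95% interval 784 to 949) and 1226-fold (1109 to 1359). The neighbours Mir298 and Mir296 were much closer, at 1.26-fold (1.23 to 1.30) and 1.57-fold (1.54 to 1.61) in favour of Mir298. Mir298 exceeded Mir483 by 1.14-fold and 1.27-fold, and Mir483 exceeded Mir296 by 1.10-fold and 1.24-fold. All 20 ratios, 10 pairs in 2 libraries, differed from 1 to 1 in the two-sided exact binomial test after Benjamini-Hochberg adjustment over the 20, the highest adjusted p being 2.56e-13. The order Mir335, Mir298, Mir483, Mir296, Mir675 held in each heart. These tests take in counting error only, and capture efficiency of the different sequences was not tested.

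**Figure D4:**
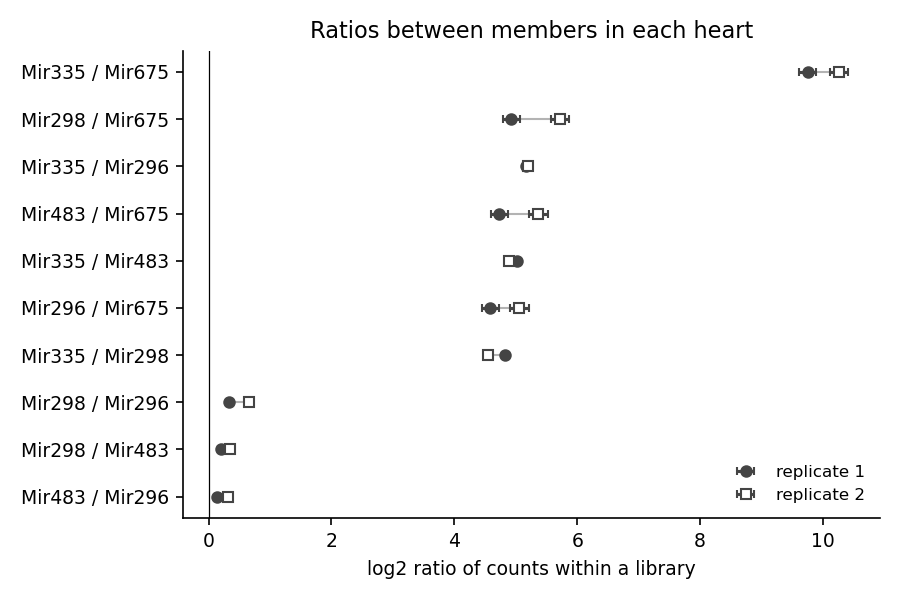
Log2 ratio of counts within a library for the 10 pairs of members in replicate 1 (filled circles) and replicate 2 (open squares), with exact 95% counting intervals; 0 means equal counts. The 3 pairs among Mir298, Mir483 and Mir296 lie between 0.14 and 0.65, and all pairs with Mir335 or Mir675 lie above 4.5.

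Set by the parental copy that background knowledge assigns, microRNAs assigned to the paternal copy were far above the microRNA of the maternally expressed host. The 4 paternal members summed to 64168 CPM in replicate 1 and 67930 CPM in replicate 2, against the 68.1 and 50.2 CPM of Mir675. The ratio was 942 in replicate 1 and 1353 in replicate 2, with a mean log2 ratio of 10.14 ± 0.37. Most of that came from Mir335. Without Mir335 the ratio was 81.0 and 127, with a mean log2 ratio of 6.66 ± 0.46. Mir296 and Mir298 lie past the annotated end of Nespas, and their assignment to the paternal copy was not tested. With these neighbours left out and Mir335 kept, the ratio was 888 and 1268. The comparison inside the Igf2 and H19 domain, Mir483 over Mir675, gave 26.6 (exact 95% interval 24.1 to 29.3) and 41.3 (37.3 to 45.8). One maternally expressed host against 3 loci whose microRNAs were assigned to the paternal copy allows no test between alleles, since hosts are not replicates of an allele.

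A larger maternally expressed set was taken for comparison, the microRNAs of the Dlk1-Dio3 domain on chromosome 12, which come from Meg3 and other maternal transcripts. Of 57 listed genes 49 were among the gene rows, and 43 of those had 10 or more counts in both libraries. They summed to 15775 and 15554 CPM, which was 232 and 310 times Mir675. Listed genes without a gene row are not in this sum and could only add to it, so the maternal level is a lower limit. With the counted genes of the domain included, the 4 paternal members had 4.05 and 4.35 times the level of Mir675 and the domain together. That excess rests on Mir335. Without Mir335 the other 3 paternal members had 0.348 and 0.409 times the maternal level, so the direction reversed in both hearts. The highest of the domain by mean were Mir411, at 3192 and 2959 CPM, and Mir127, at 1710 and 1723 CPM, the latter just above Mir487b at 1725 and 1708 CPM. Mir298 and Mir483 were each exceeded by 1 gene of the domain and Mir296 by 3, while Mir675 was exceeded by 24 of 49. Mir184, reported as paternally expressed in brain, had only 21.2 and 22.3 CPM.

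Between the hearts, Mir675 was higher in replicate 1 and Mir335, Mir483 and Mir298 were higher in replicate 2. The log2 ratio of replicate 2 over replicate 1 was -0.44 for Mir675 (95% interval -0.64 to -0.24, exact binomial test, adjusted p = 7.02e-05). For Mir298 it was 0.35 (0.32 to 0.38, exact binomial adjusted p = 3.00e-103), for Mir483 0.20 (0.16 to 0.23, exact binomial adjusted p = 5.20e-28), and for Mir335 0.07 (0.06 to 0.08, exact binomial adjusted p = 6.79e-106). Mir296 had 0.03 (-0.01 to 0.07) and did not pass (exact binomial adjusted p = 0.243). As folds, Mir675 was 1.36 times as high in replicate 1, while Mir298, Mir483 and Mir335 were 1.27, 1.15 and 1.05 times as high in replicate 2. This test compares 2 libraries given their totals, over all 435 genes with 10 or more counts, and not conditions. With the most abundant gene left out of the totals, the log2 ratio was 0.03 for Mir335, and genes called split into 69 higher in replicate 2 and 65 higher in replicate 1, where the full totals gave 83 and 52. A difference between animals cannot be told apart from one between library preparations.

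Calls in this test follow depth. It called 4 of 5 members against 31.0% of the 435 genes, with 3 members higher in replicate 2, where 19.1% of genes were called, and 1 higher in replicate 1, where 12.0% were. Among the 84 genes with 10000 or more counts over both libraries, a minimum chosen after the data were seen, 78.6% were called, and 3 of the 4 members of that depth were. The members' share of calls is near that background. The coefficient of variation of the 2 hearts was 21.4% for Mir675 and 17.0% for Mir298, 9.65% for Mir483, 3.41% for Mir335 and 1.53% for Mir296. Counting alone gives 4.95%, 0.775%, 0.855%, 0.154% and 0.928%, in the same order. Each comes from 2 values, and a difference in spread among members was not tested. Of all genes tested, 24.1% had a larger absolute log2 ratio than Mir675 and 33.3% a larger one than Mir298. These shares are not matched for depth. The median absolute log2 ratio was 0.21 over all 435 genes and 0.11 over the 84 genes with 10000 or more counts. Mir298, at 0.35, is among those 84, so the share of 33.3% does not show where it stands among genes of its depth. When a biological spread between hearts of 0.1 (coefficient of variation) was allowed for in edgeR's exact test, 0 of 5 members passed (0.230% of genes did), and with 0.2 also 0 (0.00% of genes). None of the 5 had an unadjusted p under 0.05 in either.

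**Figure D5:**
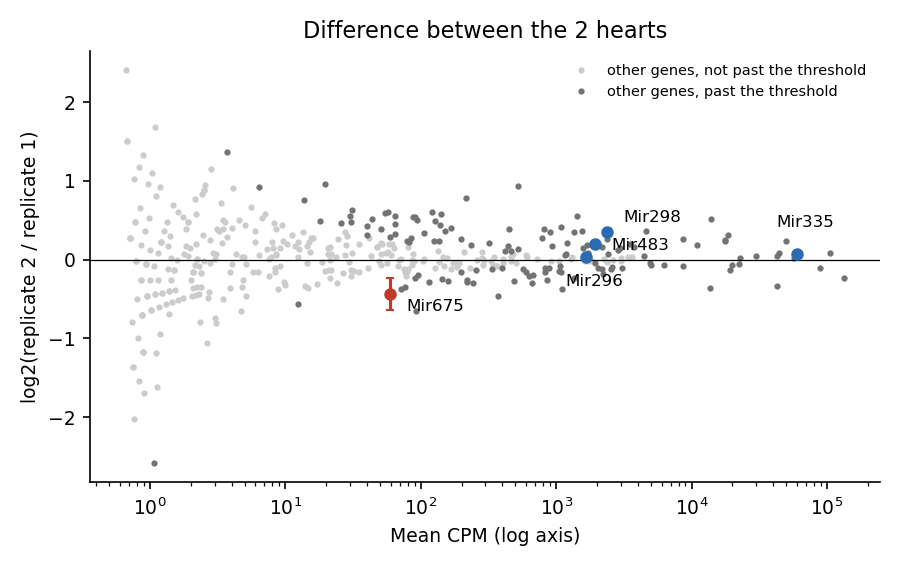
Log2 ratio of replicate 2 over replicate 1 against mean CPM (log axis) for the 435 genes tested, with the members in colour and their 95% counting intervals; darker grey points passed the exact binomial test. Mir298 (0.35) and Mir675 (-0.44) lie farthest from 0 among the members, on opposite sides.

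Ratios of members to each other do not depend on how the libraries are scaled, and they also moved between the hearts. In two-sided Fisher's exact tests adjusted over the 10 pairs, all 10 passed. These tests compare 2 libraries and take in counting error only; spread between hearts was not allowed for. The background is high at this depth: at an unadjusted p under 0.05, 85.9% of the 3486 pairs of genes with 10000 or more counts and 23.4% of the 94395 pairs of all genes tested passed the same test. Of the members' pairs, 6 join genes of that depth, and their passing is therefore nothing particular to the members. For the 4 pairs with Mir675, which is below that depth, no share of like pairs was computed. The count of 10 is thus not read as particular to the members. Mir298 over Mir675 moved most, from 30.4 in replicate 1 to 52.5 in replicate 2, a 1.73-fold shift (Fisher's exact test, adjusted p = 5.60e-14). Mir483 over Mir675 shifted by 1.56-fold (Fisher's exact test, adjusted p = 8.13e-10). Mir298 over Mir296, neighbours on the same strand, shifted by 1.25-fold (Fisher's exact test, adjusted p = 2.57e-36). Mir335 over Mir296 moved least, by 1.03-fold (Fisher's exact test, adjusted p = 0.0474). The 4 pairs with Mir675 all moved toward less Mir675 in replicate 2, but they share its counts and are not 4 separate results.

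Markers of the tissue and of other cell types also differed somewhat between the libraries. All 3 heart muscle markers were detected and took 12.2% and 12.5% of the counts. They did not move one way: Mir208b had 101723 and 108150 CPM, Mir208a 15419 and 11988 CPM, and Mir499 5106 and 4847 CPM. The 2 endothelial markers took 14.7% and 12.5%, the 2 smooth muscle markers 9.41% and 8.77%, and the 4 fibroblast markers 2.15% and 1.98%. Single genes set the endothelial and fibroblast sums. Mir126a was lower in replicate 2 (144115 and 122186 CPM), but Mir139 was higher (2741 and 2989 CPM). Of the fibroblast markers only Mir21a was lower there (20161 and 18387 CPM). Mir214 (1300 and 1334 CPM), Mir199a-2 (33.9 and 45.6 CPM) and Mir199a-1 (1.73 and 3.15 CPM) were higher. The 3 erythroid markers had 1114 and 1379 CPM. Mir451a had 931 and 1237 CPM of these, while Mir144 was lower in replicate 2 (112 and 71.2 CPM) and Mir486 had 71.2 and 71.3 CPM. The 2 leukocyte markers counted, of 3, had 522 and 565 CPM, the 6 epithelial markers 324 and 298 CPM and the 2 skeletal muscle markers 76.7 and 110 CPM. Of the leukocyte markers, Mir155 had 113 and 169 CPM and Mir223 409 and 396 CPM. Among the epithelial markers only Mir200a was higher in replicate 2 (7.69 and 8.52 CPM). The liver microRNA Mir122 had 35.8 and 44.6 CPM. Of 5 neuronal genes counted 4 were at 0, all of them genes with further copies, whose reads can match several places. The part of these cell types in the members' differences between hearts was not tested.

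Likeness was measured as the Euclidean distance in log2(CPM + 1) over both hearts, which with 2 samples of 1 tissue mostly reflects level. The genes nearest to Mir335 were Mir322 on the X chromosome (distance 0.12) and Mir30e (0.42). Nearest to Mir298 were Mirlet7f-2 (0.07) and Mir744 (0.21), nearest to Mir483 were Mir188 (0.17) and Mir148a (0.20), and nearest to Mir296 were Mir379 (0.05), a gene of the Dlk1-Dio3 domain, and Mir324 (0.06). Nearest to Mir675 were Mir181a-2 (0.28) and Mir302a (0.35). None of these 10 genes is a member or a neighbour of one.

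Outside the loci themselves, the closest counted microRNA genes were lower than the member they flank. Those beside Mir335 were Mir29a, 321 kb away at 427 and 311 CPM, and Mir183, 572 kb away at 11.0 and 8.78 CPM. Mir335 thus exceeded the higher of its flanking genes by more than 100-fold in each heart. On the far side of Mir483 stood Mir7064, 916 kb away with 8 and 6 counts. Mir3104, on the far side of Mir675, was 585 kb away with 0 counts in both libraries. On the far side of Mir296 was Gm27591, 19.1 kb away with 0 counts in both. Mir7005, on the far side of Mir298, was 5912 kb away with 0 and 1 counts.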

How the data were processed

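Small RNA libraries of 2 newborn mouse hearts, 1 group, were analysed. The authors deposited, per the text files supplied with them, a table of read counts per gene for each library, not normalized, made from 1 alignment file on mm10 with GENCODE M4. Aligner, counter and trimming: not given in the sources used here. The headerless tables hold 3 count columns. The first equals the sum of the others, the second holds 92.9% and 92.8% of gene counts and was read as the strand of the gene. Rows for reads outside genes were not used (of all reads, 12.6% and 15.5% unmapped, 35.9% and 34.6% matching several places, 1.93% and 2.28% in no gene).

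Names came from GENCODE M21 (1894 of 1973 identifiers; the 79 others had 0 counts). All 5 members matched RefSeq sequences (GRCm38.p6). Hairpins were folded with RNAfold 2.7.2. A quasi-likelihood fit has no residual degrees of freedom here, so libraries were compared by two-sided exact binomial tests given the totals, with Benjamini-Hochberg adjustment over all genes with 10 or more counts, threshold 0.05, and log2 ratios with 0.5 added counts. The tests were checked on simulated data. Intervals are Clopper-Pearson 95% and, like the floor of 3 counts, cover counting error only. Alternatives were both strands, TMM (edgeR 4.0.16), DESeq2 1.42.0 size factors, totals without the top gene, other minimums, pseudocounts and repeat lengths, preset variation, each library alone and, added after the data were seen, the Dlk1-Dio3 comparison without Mir335. Python 3.11.15, SciPy 1.17.1 and R 4.3.3 were used. Besides members, named genes were the 2 nearest in level, flanking genes, the 2 highest Dlk1-Dio3 genes and marker lists. Members and lists were chosen with earlier results of these data known.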

Additional observations from a re-analysis of the deposited data

Results flagged for a closer look

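Reads on the strand opposite a member enter no comparison above, and only Mir335 had more of them than the 3 counts that an observed 0 allows. It had 5 opposite-strand counts in replicate 2, of 469646 on both strands (0.00106%, exact Clopper-Pearson 95% interval 0.000346 to 0.00248), and 2 of 373843 in replicate 1. Mir675 had 1 in replicate 1 and 0 in replicate 2, and Mir483, Mir296 and Mir298 had 0 in both libraries.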

How the results depend on the processing

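The order of the members and the direction of all 10 pair ratios held with counts of both strands and in each library alone, and all 20 tests within a library and all 10 between hearts still passed with both strands. Leaving the most abundant gene out of the totals moved the mean levels of Mir335, Mir483 and Mir296 by more than 1 SD, to 69322, 2237 and 1910 CPM, and totals of both strands moved Mir335 and Mir296 to 55783 and 1537 CPM. By construction these change the divisor of all genes alike. The log2 ratio of paternal to maternal members was 6.66 without Mir335. With the Dlk1-Dio3 domain added to the maternal side it was 2.07, and without Mir335, an alternative chosen after the data were seen, it reversed to -1.41. Genes past the threshold between hearts fell from 135 to 1 at a preset variation of 0.1 (29 at an unadjusted p under 0.05) and to 0 at 0.2 (4 unadjusted), and members past it from 4 to 0 at both. In the other 7 alternatives, 129 to 146 genes and the 4 members passed. Mir335 kept its direction at 0.03 without the most abundant gene, against 0.07, and Mir296 changed sign there, to -0.0053 (exact binomial adjusted p = 0.913). Genes detected in both libraries numbered 574 with a minimum of 1 count and 236 with 100. Shared runs of 18 or 22 nt also marked 0 members. At 434 and 383 counts, Mir675 is the member whose ratios depth limits most.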
